A study of Mus musculus with 30 samples.

Results

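The 38 genes described here are those of the amino acid response run by the transcription factor ATF4, together with 13 cytosolic aminoacyl tRNA synthetases. They were chosen by name, as a list of 9 transcription factors and stress regulators, 11 enzymes of asparagine, serine, one-carbon and proline synthesis, 5 amino acid transporters and the 13 synthetases, and the list was drawn up with results of these same libraries in view. All 38 were found among the 23420 genes of the deposited tables, and 37 of them were among the 12611 genes with enough counts to test. The exception was Cebpb, a partner of ATF4, which had at most 4 counts in any library. Because the list was selected on knowledge of these data, its counts describe the members and are no independent evidence of a direction.

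RNA-seq was done on CD4 T cells of mice, in 10 groups with 3 libraries each, 30 in all. The mice were of the C57BL/6 strain and carried 2 reporters, GFP at Foxp3 and Thy1.1 at IL-10. Their naive T cells were stimulated by anti-CD3 (2.5 ug/ml) on feeder splenocytes that had been irradiated and stripped of CD4 cells, 6 for each T cell. IL-12 (20 ng/ml) was the cytokine added for Th1, IL-4 (20 ng/ml) that for Th2, and IL-27 (25 ng/ml) that for Tr1, a regulatory type. Th17 cells were grown in TGFb1 (2 ng/ml) plus IL-6 (25 ng/ml). Pathogenic Th17 cells, written pTh17, were grown in IL-6 (25 ng/ml) plus IL-1b and IL-23 (each 20 ng/ml). After 72 h, live GFP negative T cells of each culture were divided by the Thy1.1 reporter into an IL-10 positive and an IL-10 negative group, and each library was made from 2000 cells. All groups therefore share both reporters, the anti-CD3 and the feeder cells, and the sort removed Foxp3 expressing cells. Whether a group's 3 libraries had separate cultures or animals as their source is not in the labels, and the spread behind each p-value is that of these libraries and may be only technical.

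ATF4 is made when a shortage of amino acids or another stress leads a kinase to phosphorylate the translation factor eIF2alpha, which slows translation in general and lets the ATF4 message be read. With a C/EBP partner ATF4 binds a composite DNA element and raises genes that import amino acids, build asparagine, serine, glycine and proline, and load amino acids on tRNA. Dividing T cells need these same products for protein and nucleotide synthesis, and the members are also known to respond to growth signals.

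The composite element is shown first, since ATF4 is known to bind it with a C/EBP partner. RefSeq promoter windows of GRCm38.p6, 250 bases before to 50 bases after the annotated start, were matched for 32 of the 38 members, 1 of them by an older symbol. The letters TGATGNAA were searched on both strands and found in 10 of the 32 (31.3%), against 1219 of 27025 genes of the whole promoter table (4.51%). They were present in 5 of 8 matched synthetases, in 2 of 11 synthesis enzymes, in 1 of 4 transporters and in 2 of 9 regulators. The 10 were Trib3, Chac1, Asns, Pycr1, Slc7a11, Aars, Gars, Iars, Tars and Yars. A match is a stretch of letters and no shown binding site. Shown are the 200 bases before the annotated start of 6 of these members, picked after the matches were known to cover a regulator, both enzymes, the transporter and 2 synthetases, 5′ to 3′ on the gene's strand, with the matched letters of either strand in capitals.
Asns, chr6:7693210-7693409, minus strand: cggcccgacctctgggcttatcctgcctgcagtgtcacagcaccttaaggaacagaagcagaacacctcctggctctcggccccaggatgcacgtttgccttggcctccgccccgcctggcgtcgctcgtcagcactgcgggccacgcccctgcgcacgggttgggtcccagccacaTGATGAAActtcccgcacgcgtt
Chac1, chr2:119351042-119351241, plus strand: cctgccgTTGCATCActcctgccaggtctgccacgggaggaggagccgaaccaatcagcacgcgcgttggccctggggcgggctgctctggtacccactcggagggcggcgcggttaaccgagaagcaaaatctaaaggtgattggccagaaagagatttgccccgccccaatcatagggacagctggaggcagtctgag
Pycr1, chr11:120643749-120643948, minus strand: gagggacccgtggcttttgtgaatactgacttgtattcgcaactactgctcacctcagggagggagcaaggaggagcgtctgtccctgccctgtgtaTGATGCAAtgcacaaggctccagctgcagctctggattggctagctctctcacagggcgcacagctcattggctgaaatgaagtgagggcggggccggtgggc
Slc7a11, chr3:50443614-50443813, minus strand: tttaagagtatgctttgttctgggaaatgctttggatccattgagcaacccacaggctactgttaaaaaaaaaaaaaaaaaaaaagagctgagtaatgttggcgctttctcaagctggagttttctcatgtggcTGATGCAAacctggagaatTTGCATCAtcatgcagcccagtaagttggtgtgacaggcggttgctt
Aars, chr8:111033642-111033841, plus strand: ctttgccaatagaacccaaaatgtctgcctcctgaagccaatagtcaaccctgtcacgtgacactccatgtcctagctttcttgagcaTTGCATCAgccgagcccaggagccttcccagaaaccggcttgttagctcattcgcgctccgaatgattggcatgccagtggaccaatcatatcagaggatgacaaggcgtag
Gars, chr6:55037801-55038000, plus strand: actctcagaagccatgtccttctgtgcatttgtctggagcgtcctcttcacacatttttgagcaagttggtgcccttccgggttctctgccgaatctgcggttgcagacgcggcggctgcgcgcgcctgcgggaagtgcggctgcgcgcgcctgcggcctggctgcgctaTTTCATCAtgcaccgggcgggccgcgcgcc
The match nearest to a start in these stretches is that of Asns, whose first base lies 23 bases before the start. Slc7a11 holds a match on each strand, at 66 and 47 bases before the start used. For Aars and Slc7a11 the start used lies inside the annotated gene. On its own strand the annotated gene begins at chr8:111027778 for Aars and at chr3:50499087 for Slc7a11.

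Total expected counts ran from 4394704 to 11850597 per library, and the members took from 0.167% to 0.407% of them. T cell markers were high in every library (Cd3e from 305 to 625 CPM, the counts scaled to library size). The third Tr1 IL-10 positive library, replicate 18, stood apart, with 32.8% of its counts in its 10 most abundant genes. In bulk RNA, fewer cells of a type and less RNA per cell cannot be told apart. CPM, on TMM-scaled library sizes, is used below to compare groups within a gene, and TPM, which is scaled for gene length, to compare genes.

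By TPM, the most abundant members over all libraries were Atf4, Wars, Gars, Phgdh and Psat1, and the least abundant were Cebpb, Chac1, Atf5 and Pycr1. Atf4 itself had its highest mean level in pTh17 IL-10 positive libraries on both scales (200.3 ± 4.11 CPM and 220.2 ± 8.73 TPM, SD, n = 3). Its lowest group depended on the scale: it was Th17 IL-10 negative by CPM (84.1 ± 9.28 CPM, SD, n = 3) and Th1 IL-10 negative by TPM (101 ± 1.96 TPM, SD, n = 3). Th2 IL-10 positive libraries held the highest mean CPM of 15 members (12 by TPM), pTh17 IL-10 positive libraries that of 10 (10 by TPM), and Th17 IL-10 positive libraries that of 4 (9 by TPM). Tr1 IL-10 negative libraries held the lowest mean CPM of 18 members (13 by TPM), Th17 IL-10 negative libraries that of 7 (4 by TPM) and Th1 IL-10 negative libraries that of 3 (11 by TPM). The CPM scale gave the same highest group for 30 of the 38 members and the same lowest group for 27. Among the 5 IL-10 negative groups, 36 of the 37 tested members differed, where 88.2% of all tested genes did. Among the 5 IL-10 positive groups, 35 differed, against 92.2% of all tested genes, shares near those of the members. Sesn2, a stress-induced inhibitor of growth signalling, did not pass in either comparison (adjusted p = 0.107 and 0.110), though it did in 2 alternatives of each (lowest adjusted p = 0.0381 and 0.0249), and Cebpg, a C/EBP partner of ATF4, did not pass in the IL-10 positive groups (adjusted p = 0.566).

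The comparison of IL-10 positive with IL-10 negative cells asks how the genes differ between cells that made the cytokine and cells of the same culture that did not. More members were higher than lower in IL-10 positive cells of each culture. In Th1 cells 29 members were called higher and 0 lower at an adjusted p below 0.05, where 23.5% of all tested genes were higher and 20.4% lower. Th17 cells had 29 higher and 2 lower, against 29.2% and 28.9%. In Tr1 cells 17 were higher and 2 lower, against 20.5% and 14.2%. In pTh17 cells 16 were higher and 1 lower, against 10.1% and 8.33%, and in Th2 cells 12 were higher and 1 lower, against 12.3% and 9.49%. The members' median log2 fold change was 0.56 in Th1, 0.15 in Th2, 0.78 in Th17, 0.26 in pTh17 and 0.28 in Tr1 cells, beside medians over all tested genes between -0.04 and 0.05. Without the first Th2 IL-10 negative library, replicate 7, only 7 members were called in Th2 cells in place of 13. Without Tr1 IL-10 positive replicate 18, 16 were called in Tr1 cells in place of 19. Each of the 109 calls had the same direction in mean TPM. Groups without overlap were common: of all tested genes, 26.8% lay wholly above and 24.5% wholly below in Th1 cells. These shares were 20.9% and 17.8% in Th2, 31.2% and 31.2% in Th17, 17.4% and 15.3% in pTh17, and 23.7% and 17.6% in Tr1 cells. Members given by library below were picked in part by their fold changes, so a lack of overlap there is a description only.

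**Figure D1:**
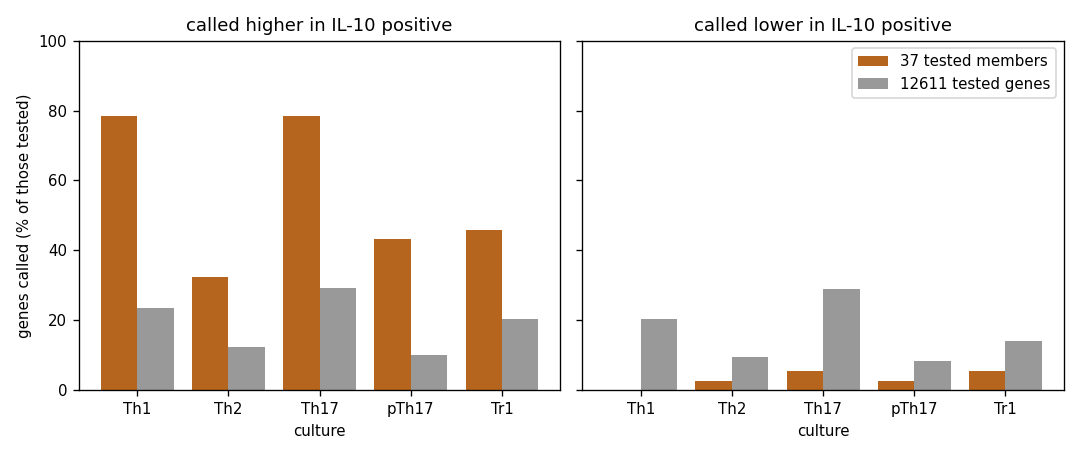
Share of genes called higher (left) and lower (right) in IL-10 positive cells of each culture, in percent of those tested, for the 37 tested members (brown) and the 12611 tested genes (grey). The members' bars for higher genes stand at 78.4% in Th1 and in Th17 cells, against 23.5% and 29.2% of all tested genes.

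Genes of cell division also differed between these groups, though not in step with the members in size. Of 15 cell cycle genes, 15 were higher in IL-10 positive Th1, Th17, pTh17 and Tr1 cells and 6 in Th2 cells, with median log2 fold changes of 1.37, 3.48, 0.48, 3.36 and 0.16. The cell cycle median was thus nearly as large in Tr1 as in Th17 cells, while the members' median was much smaller in Tr1 cells. The summed level of the cell cycle genes ran from 512 to 645 CPM in Th17 IL-10 negative and from 4304 to 4609 CPM in Th17 IL-10 positive libraries. In Tr1 cells the sums were 199 to 211 and 955 to 1033 CPM. Markers of other cells were higher in IL-10 positive cells of some cultures and not of others. For B cells in pTh17 cultures, 8 of the 9 tested of 11 were higher in the IL-10 positive group, with summed levels of 112 to 124 and 231 to 311 CPM. Pax5, which defines the B lineage, was at 0 in 24 of the 30 libraries. Of 9 myeloid markers 6 were tested and 4 were higher in IL-10 positive pTh17 cells, with sums of 11.4 to 13.4 and 25.2 to 31.8 CPM. In Th1 cells the sums in negative and positive libraries were 17.2 to 24.5 and 71.2 to 81.7 CPM for myeloid, 16.6 to 18.8 and 43.5 to 54.5 CPM for B cell, and 6.53 to 8.51 and 81.2 to 85.1 CPM for the 4 NK cell markers. In Tr1 cells they were 5.41 to 5.89 and 59.2 to 68.5 CPM for NK cell, 5.08 to 6.81 and 19.03 to 20.5 CPM for myeloid, and 23.7 to 27.3 and 42.7 to 51.4 CPM for the 2 CD8 T cell markers. In Th17 cells the B cell sums were 5.90 to 7.60 and 20.6 to 23.5 CPM, and in Th2 cells 40.3 to 43.7 and 47.5 to 63.4 CPM. Other sums overlapped. In Th17 cells those for CD8 T cells were 9.44 to 12.6 and 6.27 to 9.80 CPM, and those for myeloid cells 3.25 to 4.56 and 1.55 to 4.95 CPM. The CD8 T cell sums in pTh17, the myeloid and NK cell sums in Th2 and the B cell sums in Tr1 cells overlapped too. Ncr1, which defines NK cells, was at 0 in 22 libraries and at most at 0.665 CPM. The part of cell division and of these other cells in the members' differences was not tested.

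Averaged over the 5 cultures, 31 members were higher and 2 lower in IL-10 positive cells, where 29.6% of all tested genes were higher and 28.2% lower. The 2 that were lower were the stress regulators Trib3 (log2 fold change -0.36 ± 0.11 (SE), adjusted p = 0.00636) and Ddit3 (-0.25 ± 0.07 (SE), adjusted p = 0.00151). Asns (2.64 ± 0.20 (SE), adjusted p = 1.79e-14), Shmt1 (1.26 ± 0.09 (SE), adjusted p = 2.05e-14) and Phgdh (1.09 ± 0.05 (SE), adjusted p = 2.97e-22) had the largest mean differences among called members with at least 5 CPM. Wars was called higher in the mean by a small amount (0.11 ± 0.03 (SE), adjusted p = 0.00180). Higher calls were shared unevenly: 4 members (Asns, Psat1, Aars and Gars) were called higher in all 5 cultures, though in Th2 cells Psat1 was not without negative replicate 7 (adjusted p = 0.0900), nor Asns without positive replicate 9, and in pTh17 cells Aars was not without positive replicate 13 or negative replicate 14 (highest adjusted p = 0.147). In the fit of all libraries 11 more were called higher in 4 cultures, and 4 (Atf5, Sesn2, Cebpg and Pycr1) were called in none.

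**Figure D2:**
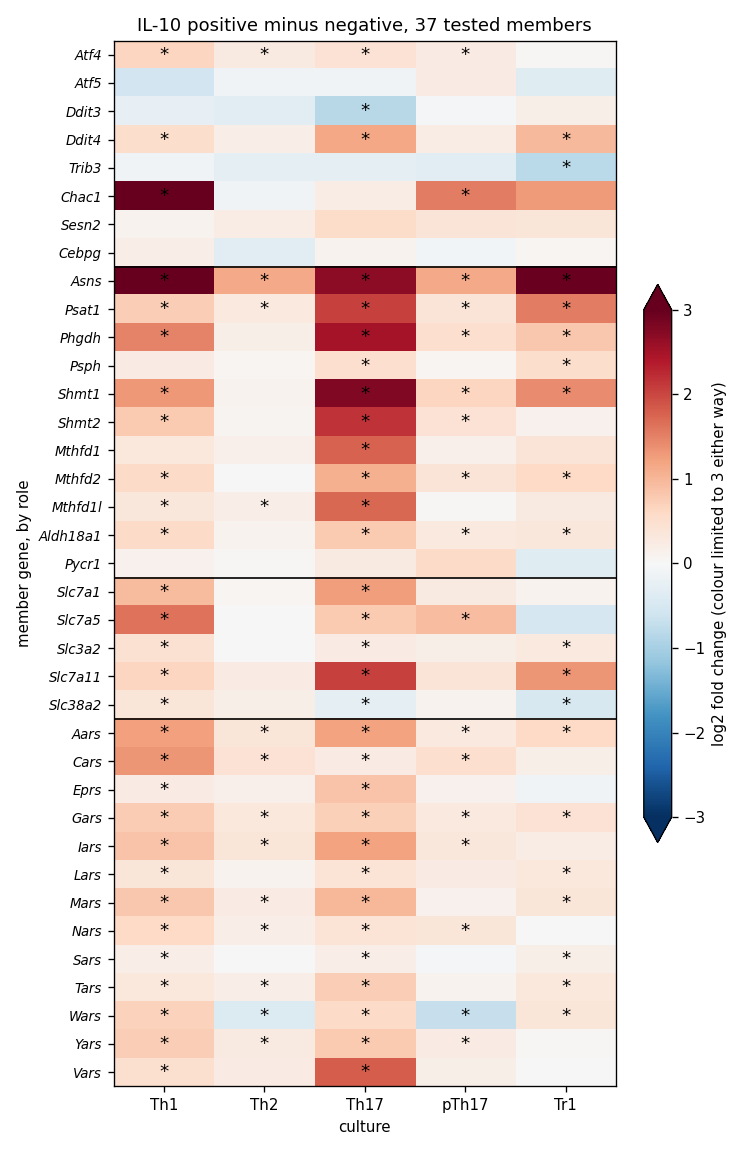
Log2 fold change of IL-10 positive over negative cells in each culture (columns) for the 37 tested members (rows), in 4 blocks by role: regulators, synthesis enzymes, transporters and tRNA synthetases. Asterisks mark an adjusted p below 0.05; the colour is limited at 3, which Asns passes in Th1 (5.32). Wars is the synthetase with 2 blue cells marked as called, in Th2 and pTh17.

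The transcription factors and stress regulators were called in both directions. Of the 8 tested, 3 were higher in Th1, 1 in Th2, 2 in Th17, 2 in pTh17 and 1 in Tr1 cells. Among all tested genes 23.5%, 12.3%, 29.2%, 10.1% and 20.5% were higher in these cultures. In each of Th17 and Tr1 cells 1 of the 8 was lower, against 28.9% and 14.2% of all tested genes. The same shares stand beside the counts of each role below. Atf4, the factor that gives the response its name, had 97.7, 101 and 101 CPM in the 3 Th1 IL-10 negative and 153, 156 and 161 CPM in the 3 positive libraries. The groups did not overlap (log2 fold change 0.65 ± 0.07 (SE), adjusted p = 2.44e-09). It was also higher in Th17 (0.44 ± 0.08 (SE), adjusted p = 3.34e-06), Th2 (0.26 ± 0.07 (SE), adjusted p = 0.00516) and pTh17 cells (0.26 ± 0.07 (SE), adjusted p = 0.00733). In Tr1 cells Atf4 had 104, 105 and 114 CPM in negative and 93.9, 116 and 124 CPM in positive libraries. The positive libraries there lay on both sides of the negative ones, with replicate 18 the lowest (0.05 ± 0.08 (SE), adjusted p = 0.699). Without that library the difference was 0.12 (adjusted p = 0.239). Atf4 protein was not measured, and its message is known to be controlled mainly in translation.

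Ddit3, which encodes the stress factor CHOP, had 15.3, 18.2 and 21.8 CPM in Th17 IL-10 negative and 9.35, 9.62 and 12.1 CPM in positive libraries. All positive libraries were below the negative ones (-0.83 ± 0.15 (SE), adjusted p = 1.34e-05). Ddit4, an inhibitor of mTORC1, went the other way in the same cells, from 5.93, 6.88 and 7.73 CPM in negative to 15.2, 15.2 and 15.5 CPM in positive libraries, again without overlap (1.16 ± 0.16 (SE), adjusted p = 1.21e-07). It was also higher in Th1 (0.53 ± 0.16 (SE), adjusted p = 0.00558) and Tr1 cells (0.97 ± 0.22 (SE), adjusted p = 6.38e-04), the former lost without Th1 IL-10 negative replicate 4 (adjusted p = 0.0537). Trib3, a pseudokinase that restrains the response, had 9.28, 9.39 and 9.54 CPM in Tr1 IL-10 negative and 3.99, 5.21 and 6.84 CPM in positive libraries. The positive libraries were all lower (-0.82 ± 0.27 (SE), adjusted p = 0.0149), but without replicate 18 of the positive group the change was no longer called (adjusted p = 0.0795). Chac1, an enzyme that breaks down glutathione, was scarce: 3 counts in all in Th1 IL-10 negative and 43 in positive libraries, a depth-scaled ratio of 11.04 (95% exact counting interval 3.53 to 55.6). Such intervals cover counting error only: reads were not tagged by molecule, and libraries of a group differed by more than sampling (chi-square per degree of freedom 2.85 to 12.4). edgeR called it higher in Th1 (adjusted p = 2.43e-04) and pTh17 cells (1.54 ± 0.43 (SE), adjusted p = 0.00856), the latter lost without pTh17 IL-10 negative replicate 14 (adjusted p = 0.0712).

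The enzymes of amino acid and one-carbon synthesis had no member called lower in any culture. Of the 11, 8 were higher in Th1, 3 in Th2, 10 in Th17, 7 in pTh17 and 7 in Tr1 cells. The Th2 call of Mthfd1l (adjusted p = 0.0443) was lost in 7 alternatives (highest adjusted p = 0.170). Asns, which makes asparagine, had 0.142, 0.208 and 0.322 CPM in Th1 IL-10 negative libraries, from 4 counts in all, and 8.49, 9.77 and 10.2 CPM in positive ones. Positive libraries were far above negative ones (5.32 ± 0.48 (SE), adjusted p = 5.65e-12). The size of this difference rests on those 4 counts. Asns in pTh17 cells went from 12.1, 14.7 and 15.2 CPM to 23.3, 34.6 and 35.2 CPM without overlap (1.14 ± 0.20 (SE), adjusted p = 3.70e-05). In Th17 cells it had 1.24, 1.67 and 2.29 and 10.01, 10.8 and 12.6 CPM (2.68 ± 0.30 (SE), adjusted p = 7.36e-10), and in Th2 cells 2.12, 2.43 and 2.72 and 3.59, 4.63 and 7.70 CPM (1.13 ± 0.27 (SE), adjusted p = 0.00175). The groups were apart in each. Without the third Th2 IL-10 positive library, replicate 9, the Th2 call was lost (adjusted p = 0.0532). In Tr1 cells Asns had 0, 0.203 and 0.427 CPM, 4 counts in all, in negative and 0.801, 1.99 and 3.07 CPM in positive libraries (2.95 ± 0.71 (SE), adjusted p = 0.00115).

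**Figure D3:**
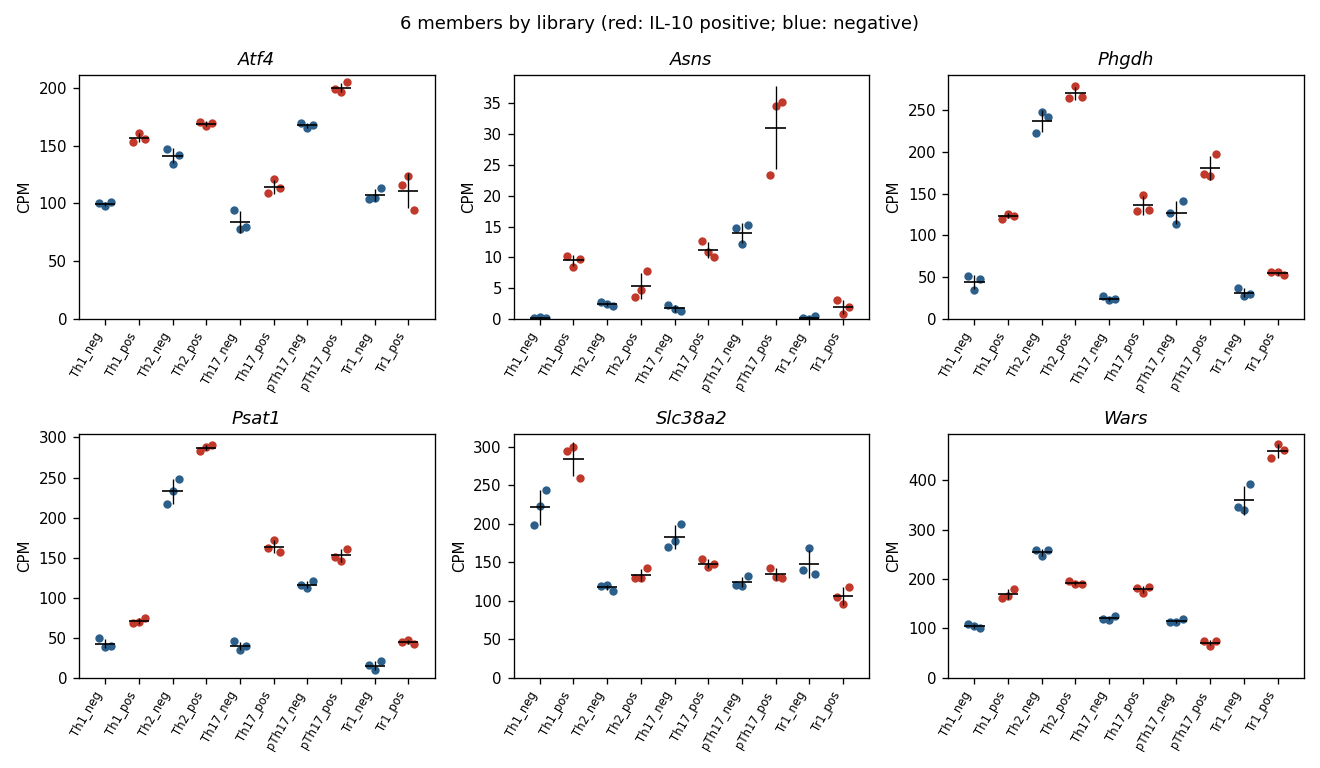
CPM of 6 members in each of the 30 libraries (points), with group mean (line) and SD (bar), by group; red is IL-10 positive and blue IL-10 negative. Asns is highest in pTh17 IL-10 positive libraries (23.3 to 35.2 CPM) and Wars in Tr1 IL-10 positive libraries (446 to 474 CPM).

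Phgdh, Psat1 and Psph encode the 3 steps from a glycolytic intermediate to serine. Phgdh, the first step, had 22.3, 23.4 and 27.03 CPM in Th17 IL-10 negative and 129, 130.00 and 148 CPM in positive libraries. All 3 positive libraries were well above the negative ones (2.49 ± 0.11 (SE), adjusted p = 1.62e-21). In Th1 cells it went from 34.9, 47.4 and 51.1 to 119.97, 124 and 126 CPM (1.48 ± 0.10 (SE), adjusted p = 4.53e-15). In Th2 cells it was already at 223, 241 and 248 CPM in negative libraries and at 265, 266 and 279 CPM in positive ones, a difference that was not called (0.19 ± 0.09 (SE), adjusted p = 0.123) except in the fit of these 2 groups alone (adjusted p = 0.0276). Psat1, the second step, was called in every culture, with its smallest fold change in Th2 (0.30 ± 0.09 (SE), adjusted p = 0.0131) and its largest in Th17 cells (2.04 ± 0.11 (SE), adjusted p = 5.85e-19). In Tr1 cells it had 9.28, 15.4 and 20.5 CPM in negative and 42.1, 44.8 and 46.9 CPM in positive libraries, which did not overlap (1.53 ± 0.14 (SE), adjusted p = 4.05e-11). Psph, the last step, was called in Th17 (0.50 ± 0.12 (SE), adjusted p = 4.95e-04) and Tr1 cells (0.54 ± 0.13 (SE), adjusted p = 0.00178). In Th1 cells (adjusted p = 0.0813) it passed in 4 alternatives (lowest adjusted p = 0.0167).

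The one-carbon enzymes pass carbon from serine into the folate cycle. Shmt1, the cytosolic enzyme that splits serine to glycine, had 8.51, 9.12 and 11.6 CPM in Th17 IL-10 negative and 56.5, 65.8 and 77.6 CPM in positive libraries (2.78 ± 0.16 (SE), adjusted p = 1.96e-17). Shmt2, its mitochondrial counterpart, had 30.6, 31.7 and 37.2 and 139.8, 140.4 and 169 CPM (2.18 ± 0.10 (SE), adjusted p = 3.34e-21). Mthfd1l, a mitochondrial folate enzyme, had 24.1, 25.8 and 28.8 and 79.00, 90.1 and 90.3 CPM there (1.72 ± 0.09 (SE), adjusted p = 3.98e-19). In each of the 3 the positive libraries lay above all negative ones. Tr1 cells split this pair of serine enzymes: Shmt1 went from 1.89, 3.27 and 3.45 to 4.41, 8.64 and 10.8 CPM (1.43 ± 0.30 (SE), adjusted p = 2.65e-04), while Shmt2 had 29.02, 30.9 and 34.5 and 30.8, 32.5 and 39.9 CPM, which overlapped (0.14 ± 0.12 (SE), adjusted p = 0.398). Shmt1 was also higher in pTh17 cells, from 23.7, 25.4 and 28.6 to 35.04, 41.3 and 46.2 CPM (0.66 ± 0.14 (SE), adjusted p = 8.39e-04). Mthfd1, the cytosolic folate enzyme, was called in Th17 cells (1.76 ± 0.12 (SE), adjusted p = 4.28e-16). It was not called in Th1 cells (adjusted p = 0.0700) but passed in 4 alternatives there (lowest adjusted p = 2.67e-04), and in Tr1 cells (adjusted p = 0.0524) it passed in 3, among them the fit without positive replicate 18 (lowest adjusted p = 0.0196). Mthfd2 was called in 4 cultures, with log2 fold changes of 0.56 in Th1, 1.08 in Th17, 0.38 in pTh17 and 0.60 in Tr1 cells, as was Aldh18a1, the first enzyme of proline synthesis (0.56, 0.79, 0.28 and 0.35). The Aldh18a1 call was lost in pTh17 cells without negative replicate 13 or 14 or positive replicate 15 (highest adjusted p = 0.0696), and in Tr1 cells without the filter on low counts (adjusted p = 0.0785). Of 19 other genes of these pathways 15 were tested, and 4 were higher and 1 lower in Th1, 1 and 0 in Th2, 7 and 2 in Th17, 5 and 0 in pTh17, and 6 and 3 in Tr1 cells.

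Of the 5 transporters, 5 were higher in Th1, 4 in Th17, 1 in pTh17, 2 in Tr1 and 0 in Th2 cells, where 1 of the 5 had an unadjusted p below 0.05. Over all members, DESeq2 and edgeR with other size factors each made 13 calls in Th2, as many as here. Slc7a5, the light chain of the large neutral amino acid carrier, had 1.45, 2.13 and 2.70 CPM in Th1 IL-10 negative and 4.17, 6.91 and 7.89 CPM in positive libraries (1.63 ± 0.36 (SE), adjusted p = 2.82e-04). In pTh17 cells it went from 5.06, 5.18 and 7.68 to 9.64, 10.3 and 13.97 CPM (0.92 ± 0.27 (SE), adjusted p = 0.0140). Both differences were free of overlap, though the pTh17 call was lost without replicate 13 or 15 of the negative or replicate 15 of the positive group (highest adjusted p = 0.104). The Th17 call of Slc7a5 (adjusted p = 0.0378) was lost in 6 alternatives (highest adjusted p = 0.249). Slc7a11, the cystine carrier, had 3.60, 4.47 and 4.55 CPM in Tr1 IL-10 negative and 8.42, 11.6 and 12.02 CPM in positive libraries (1.33 ± 0.23 (SE), adjusted p = 1.04e-05), and it was also higher in Th17 cells (2.05 ± 0.17 (SE), adjusted p = 2.22e-13). Slc3a2, the heavy chain shared by these carriers, was higher in Th1 (0.47), Th17 (0.24) and Tr1 cells (0.28), and Slc7a1, a carrier of arginine and lysine, in Th1 (0.94) and Th17 cells (1.26). The calls of Slc3a2 were lost in Th17 cells without negative replicate 12 (adjusted p = 0.0528) and in Tr1 cells without the filter or without positive replicate 18 (highest adjusted p = 0.136). Slc38a2, a carrier of small neutral amino acids, ran both ways. It had 134, 139.7 and 168 CPM in Tr1 IL-10 negative and 95.6, 105 and 118 CPM in positive libraries, all of them lower (-0.47 ± 0.09 (SE), adjusted p = 5.11e-05). Th17 cells gave 170.4, 178 and 199.6 and 144, 147 and 154 CPM, also lower (-0.30 ± 0.08 (SE), adjusted p = 0.00191), and Th1 cells 198, 223 and 243 and 259, 294 and 299.6 CPM, which was higher (0.36 ± 0.08 (SE), adjusted p = 3.61e-04).

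The tRNA synthetases load amino acids on their tRNAs. All 13 were higher in IL-10 positive Th1 cells and all 13 in Th17 cells, 8 in Th2, 7 in Tr1 and 6 in pTh17 cells. Single libraries decided some of these: in Th1 cells Lars, for leucine, was lost without replicate 5 of either group (highest adjusted p = 0.0977), and in Th17 cells Cars was lost in 5 alternatives (highest adjusted p = 0.221). Their median log2 fold change was 0.69 in Th1 and 0.74 in Th17 cells. Vars, for valine, stood out in Th17 cells with 46.4, 55.5 and 57.5 CPM in negative and 169, 180.2 and 213 CPM in positive libraries (1.82 ± 0.13 (SE), adjusted p = 3.16e-15). Cars, for cysteine, had its largest difference in Th1 cells, from 22.5, 23.3 and 28.4 to 58.5, 60.9 and 63.8 CPM (1.31 ± 0.11 (SE), adjusted p = 6.98e-13). In Th2 cells it went from 39.97, 40.9 and 47.2 to 56.7, 57.04 and 58.3 CPM (0.42 ± 0.10 (SE), adjusted p = 8.57e-04). Neither pair of groups overlapped. Iars, for isoleucine, had 91.8, 105 and 107 CPM in Th2 IL-10 negative and 123, 133 and 137 CPM in positive libraries (0.37 ± 0.08 (SE), adjusted p = 2.88e-04). Aars and Gars, for alanine and glycine, were called in all 5 cultures, Aars with its largest fold change in Th1 (1.24 ± 0.09 (SE), adjusted p = 5.53e-15) and Gars likewise (0.77 ± 0.07 (SE), adjusted p = 1.31e-11).

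Several called differences were small. Sars, for serine, had 168, 169.7 and 191 CPM in Th1 IL-10 negative and 198, 201 and 209 CPM in positive libraries (0.21 ± 0.06 (SE), adjusted p = 0.00862). In Th17 cells it had 129, 140.4 and 142 and 152, 153 and 164 CPM (0.19 ± 0.07 (SE), adjusted p = 0.0132), and in Tr1 cells 139, 139.9 and 158 and 162, 162 and 170.3 CPM (0.18 ± 0.07 (SE), adjusted p = 0.0401). The Th1 call was lost without negative replicate 5 (adjusted p = 0.0565) and the Th17 call without replicate 11 of either group (highest adjusted p = 0.0830). The Tr1 call was lost in 8 of the alternatives, with an adjusted p of up to 0.541. Eprs, for glutamate and proline, went from 77.8, 79.4 and 81.8 to 89.6, 95.1 and 97.8 CPM in Th1 cells (0.24 ± 0.08 (SE), adjusted p = 0.0133), and Tars, for threonine, from 73.7, 77.1 and 77.8 to 89.9, 93.4 and 99.7 CPM (0.31 ± 0.08 (SE), adjusted p = 9.56e-04). In Th2 cells Tars had 136, 140.2 and 151 and 158, 166 and 169 CPM (0.20 ± 0.07 (SE), adjusted p = 0.0284) and Nars, for asparagine, 133, 135 and 143 and 155, 157 and 161 CPM (0.20 ± 0.06 (SE), adjusted p = 0.0145). Yars, for tyrosine, had 49.9, 54.2 and 60.2 and 64.8, 65.1 and 65.6 CPM in pTh17 cells (0.25 ± 0.09 (SE), adjusted p = 0.0365). The groups did not overlap in these comparisons. Calls were lost without single libraries for Tars (highest adjusted p = 0.132) and Nars (0.0755) in Th2, Yars in pTh17 (0.217), and Eprs in Th1 cells, the last without positive replicate 6 (0.0587).

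Wars, for tryptophan and known to be induced by interferon gamma, was the only synthetase called lower in any culture. It had 112, 112 and 118 CPM in pTh17 IL-10 negative and 64.5, 74.1 and 74.99 CPM in positive libraries (-0.68 ± 0.07 (SE), adjusted p = 3.94e-10). In Th2 cells it had 246, 258 and 259 and 189.6, 190.1 and 196 CPM (-0.41 ± 0.06 (SE), adjusted p = 2.19e-06). All positive libraries of these 2 cultures lay below the negative ones. In Tr1 cells, where its level was highest, it had 339.99, 345 and 393 and 446, 461 and 474 CPM, with all positive libraries above (0.36 ± 0.06 (SE), adjusted p = 1.57e-05), and it was higher too in Th1 (0.69 ± 0.07 (SE), adjusted p = 3.19e-11) and Th17 cells (0.58 ± 0.06 (SE), adjusted p = 7.41e-10). By TPM Wars in Tr1 IL-10 positive libraries (319 ± 9.94 TPM, SD, n = 3) was above every other member in any group. The 10 other cytosolic synthetases and cofactors had 5 higher in Th1, 4 in Th2, 10 in Th17, 0 in pTh17 and 5 in Tr1 cells and none lower. Of 17 mitochondrial synthetases 0, 0, 7, 0 and 3 were higher in Th1, Th2, Th17, pTh17 and Tr1 cells, and 1, 1, 0, 1 and 3 were lower.

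Genes that act upstream of ATF4 were called in both directions in Th1, Th17 and Tr1 cells. Of 9 genes of the eIF2alpha kinases, their phosphatases and the GCN pathway, 3 were higher and 3 lower in Th1, 4 and 4 in Th17, 0 and 1 in pTh17, and 3 and 1 in Tr1 cells. In Th2 cells 0 were called. Ppp1r15a, which recruits a phosphatase to eIF2alpha, was lower in Th1, Th17, pTh17 and Tr1 cells (log2 fold changes -0.76, -1.14, -0.56 and -0.91). Of 23 other genes linked to ATF4, 19 were tested, and 5 were higher and 4 lower in Th1, 8 and 4 in Th2, 7 and 4 in Th17, 4 and 2 in pTh17 and 2 and 2 in Tr1 cells. Beside both lists, 23.5% of all tested genes were higher and 20.4% lower in Th1 cells. The shares were 12.3% and 9.49% in Th2, 29.2% and 28.9% in Th17, 10.1% and 8.33% in pTh17, and 20.5% and 14.2% in Tr1 cells.

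Whether the IL-10 difference was the same in all cultures was tested directly. It was unequal for 30 members, and 60.7% of all tested genes were unequal. The smallest p-values were those of Wars (adjusted p = 1.23e-16), Phgdh (3.08e-16), Shmt2 (5.41e-16) and Mthfd1l (3.05e-14). Sars lost its call in 12 of the alternatives (highest adjusted p = 0.103), and Chac1, which did not pass, did so in 4 (lowest adjusted p = 0.0115). The 7 that did not pass were Atf5, Trib3, Chac1, Sesn2, Cebpg, Pycr1 and Lars. Set against the mean of the other 4 cultures, the difference was larger in Th17 cells for 20 members and smaller for 3, against 23.9% and 22.6% of all tested genes. Shmt1 (1.90 ± 0.21 (SE), adjusted p = 7.86e-10), Shmt2 (1.82 ± 0.11 (SE), adjusted p = 1.02e-16) and Phgdh (1.75 ± 0.12 (SE), adjusted p = 4.50e-15) led there, and Ddit3 (-0.72 ± 0.17 (SE), adjusted p = 5.21e-04), Cars (-0.35 ± 0.12 (SE), adjusted p = 0.0149) and Slc38a2 (-0.35 ± 0.09 (SE), adjusted p = 0.00197) were the 3 smaller ones, of which Cars was lost without 3 single libraries (highest adjusted p = 0.0869). In Th1 cells 15 members had a larger difference and 0 a smaller one, against 11.6% and 10.3%, led by Asns (3.35 ± 0.68 (SE), adjusted p = 2.44e-04), Slc7a5 (1.33 ± 0.41 (SE), adjusted p = 0.0154) and Cars (0.98 ± 0.12 (SE), adjusted p = 5.68e-08). The call of Slc7a5 there was lost without Th1 IL-10 negative replicate 5 or positive replicate 6 (highest adjusted p = 0.0774).

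In the remaining cultures more members had a smaller difference. In Th2 cells 1 member had a larger and 19 a smaller difference than the mean of the others, against 8.44% and 12.3% of all tested genes, with Asns (-1.90 ± 0.39 (SE), adjusted p = 2.86e-04), Shmt1 (-1.44 ± 0.17 (SE), adjusted p = 2.11e-08) and Phgdh (-1.13 ± 0.10 (SE), adjusted p = 1.37e-11) the smallest. The 1 larger was Slc38a2 (0.26 ± 0.09 (SE), adjusted p = 0.0374), a call that was lost with other size factors, in DESeq2, with the replicate block and without each of 8 single libraries. In pTh17 cells 0 were larger and 17 smaller, against 8.94% and 15.2%, and Asns (-1.88 ± 0.33 (SE), adjusted p = 4.09e-05), Wars (-0.99 ± 0.07 (SE), adjusted p = 3.39e-13) and Psat1 (-0.76 ± 0.11 (SE), adjusted p = 2.15e-06) were the smallest. In Tr1 cells 3 were larger and 11 smaller, against 14.4% and 7.76%. The 3 were Psat1 (0.66 ± 0.15 (SE), adjusted p = 0.00154), Ddit3 (0.54 ± 0.17 (SE), adjusted p = 0.0158) and Wars (0.31 ± 0.07 (SE), adjusted p = 9.24e-04), and the smallest were Shmt2 (-0.74 ± 0.13 (SE), adjusted p = 2.38e-05), Vars (-0.69 ± 0.13 (SE), adjusted p = 1.62e-04) and Slc38a2 (-0.56 ± 0.10 (SE), adjusted p = 3.07e-05). Ddit3 was lost without the filter, without positive replicate 16 or without negative replicate 17 (highest adjusted p = 0.121), and Wars without the filter (0.108). These contrasts share libraries with one another and are given side by side only.

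Pathogenic and non-pathogenic Th17 cells were compared within each compartment. In IL-10 negative cells 27 members were higher in pTh17 and 1 lower, where 31.1% of all tested genes were higher and 28.9% lower. In IL-10 positive cells 13 were higher and 11 lower, against 27.8% and 28.9%. Of the 27, 12 were higher in both compartments, 7 were not called in IL-10 positive cells, and 8 were lower there. The 15 cell cycle genes moved likewise, with 15 higher in pTh17 among IL-10 negative and 13 lower among IL-10 positive cells (median log2 fold changes 2.41 and -0.53), and their part in the members' differences was not tested. These calls rest on counts. By mean TPM, Gars, Slc3a2, Cars and Psph of the 27 were lower in pTh17 IL-10 negative cells, Cars (23.7 against 24.3) and Psph (52.8 against 53.0) by little.

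Asns, Pycr1 and Ddit4 were far higher in pTh17 cells of either compartment. Ddit4 had 37.1, 48.8 and 50.4 CPM in pTh17 IL-10 negative libraries (2.73 ± 0.15 (SE), adjusted p = 3.17e-18), and 50.2, 51.6 and 57.8 CPM in IL-10 positive ones (1.80 ± 0.13 (SE), adjusted p = 4.16e-15). Pycr1, the last enzyme of proline synthesis, had 0.491, 0.773 and 1.06 CPM in Th17 and 4.71, 5.60 and 7.83 CPM in pTh17 IL-10 negative libraries (2.92 ± 0.41 (SE), adjusted p = 9.01e-08). In IL-10 positive libraries it had 0.747, 0.873 and 1.22 and 8.41, 8.79 and 9.76 CPM (3.23 ± 0.35 (SE), adjusted p = 4.24e-10). Asns was higher by 3.01 ± 0.30 (SE), adjusted p = 3.07e-11 in IL-10 negative and by 1.47 ± 0.20 (SE), adjusted p = 5.95e-08 in IL-10 positive cells. None of these 3 overlapped between the cultures. Of all tested genes, 32.3% lay wholly above and 30.6% wholly below in pTh17 among IL-10 negative groups. Among IL-10 positive groups 30.7% and 31.9% did. Chac1 had 1 count in all in Th17 IL-10 negative and 37 in pTh17 IL-10 negative libraries (depth-scaled ratio 26.2, 95% exact counting interval 4.42 to 1062), and 2 and 100 counts in the IL-10 positive groups (ratio 65.1, interval 17.6 to 545).

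**Figure D4:**
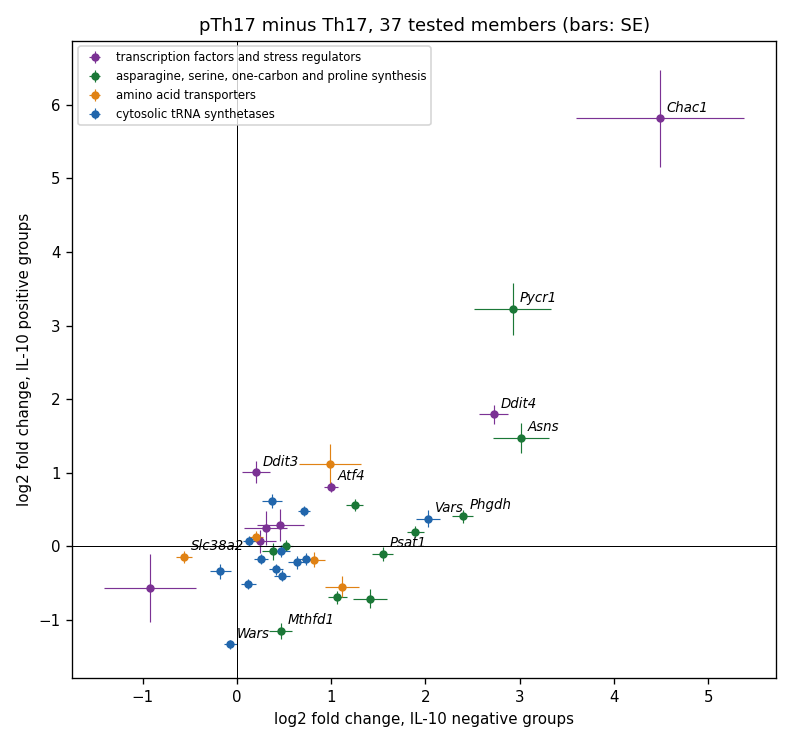
Log2 fold change of pTh17 over Th17 in IL-10 negative (x) and IL-10 positive cells (y) for the 37 tested members, coloured by role, with SE bars. Chac1, Pycr1, Ddit4 and Asns lie high on both axes, while Mthfd1 is positive on x (0.47) and negative on y (-1.15).

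The 8 members called higher in pTh17 among IL-10 negative and lower among IL-10 positive cells were Mthfd1, Shmt1, Shmt2, Slc7a11, Eprs, Gars, Iars and Mars. By mean TPM Gars was lower in pTh17 in both compartments, so its switch depended on the scale. In IL-10 negative cells the TPM of Mthfd1 (means 23.7 in Th17 and 24.9 in pTh17) and of Eprs (47.8 and 48.6) overlapped between the cultures. Among IL-10 positive cells the calls of Gars and Mars were lost with other size factors and in DESeq2. Mthfd1 had 34.2, 34.8 and 34.9 CPM in Th17 and 41.5, 50.8 and 51.2 CPM in pTh17 IL-10 negative libraries (0.47 ± 0.12 (SE), adjusted p = 0.00114). In IL-10 positive libraries it had 113, 115 and 125 and 49.2, 53.6 and 56.9 CPM (-1.15 ± 0.11 (SE), adjusted p = 1.54e-11), so that pTh17 was above in the first pair and below in the second. Shmt1 did the same (1.41 ± 0.18 (SE), adjusted p = 9.79e-09, then -0.71 ± 0.13 (SE), adjusted p = 2.23e-05). Wars was called lower in IL-10 positive cells and not called in negative ones (-0.07 ± 0.07 (SE), adjusted p = 0.371 in negative, -1.33 ± 0.07 (SE), adjusted p = 1.20e-19 in positive cells). Slc38a2 was the 1 member lower in pTh17 among IL-10 negative cells (-0.56 ± 0.08 (SE), adjusted p = 3.37e-07). The smallest differences called higher there were Slc3a2, with 100.2, 104 and 123 CPM in Th17 and 121, 127 and 128 CPM in pTh17 libraries, which overlapped (0.20 ± 0.08 (SE), adjusted p = 0.0182, lost without each of 3 single libraries, highest adjusted p = 0.124), and Gars, with 113, 119 and 119 and 134, 138 and 148 CPM, which did not (0.26 ± 0.07 (SE), adjusted p = 0.00230). In TPM both went the other way. Slc3a2 had means of 96.7 TPM in Th17 and 85.6 TPM in pTh17 libraries. Gars had 110 to 117.4 TPM in Th17 and 98.6 to 108 TPM in pTh17 libraries, without overlap, so the direction of both depended on the scale.

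Members with and without the composite letters in their promoter window are set side by side as a description. Of the 10 with a match, 8 were higher in Th1, 6 in Th2, 7 in Th17, 6 in pTh17 and 5 in Tr1 cells. Of the 21 tested of 22 without one, 15, 4, 16, 7 and 10 were higher. Asns and Aars, which hold a match, were called in every culture, while Pycr1, which also holds one, was called in none. Phgdh, Psat1 and Shmt2 had no match in this window.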

How the data were processed

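The samples were 30 mouse CD4 T cell libraries in 10 groups of 3, grouped by their titles; the protocol text names 1 Thy1.1 gate for both, so titles decided. Libraries were made by an adapted SMART-Seq2 method, per the labels' protocols, which marks neither strand nor molecules. The authors deposited RSEM expected counts per gene, per the file headers, beside TPM and FPKM, both scaled for depth and length. The deposited tables also hold gene length and effective length, another measure, per the file headers. Per the submitters' processing notes, RSEM and the mm10 build were used. Aligner and RSEM version: not given in the sources used here. The program shares reads among similar genes by an estimate. Per the file headers no gene coordinates are given, so promoter coordinates came from RefSeq GRCm38.p6.

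Expected counts were rounded and tested with edgeR 4.0.16 in R 4.3.3 (TMM, filterByExpr, glmQLFit, glmQLFTest), fitting all 30 libraries at once with 1 coefficient per group. Two-sided p-values were adjusted by Benjamini-Hochberg over the 12611 genes tested and called below 0.05. Each SE was derived from the log2 fold change and its F statistic. The script was tested on simulated data. Members and lists were chosen with earlier results of these data known. Per-library values were given for Atf4, for the 3 highest and 3 lowest fold changes among called members with at least 5 CPM in each comparison, and for the 4 smallest p-values of the equality test; other members were named after their values were seen. Alternatives were median-of-ratios size factors, DESeq2 1.42.0, no filter on low counts, a replicate block, fits of the groups compared alone, and each library left out. FPKM and length were not used.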

Additional observations from a re-analysis of the deposited data

Results flagged for a closer look

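The difference between IL-10 positive and negative cells was unequal over the 5 cultures for 30 members, by edgeR's test of equality in the fit of all libraries with adjustment over all tested genes. 60.7% of all tested genes passed that same test. Among the regulators, the adjusted p was 1.15e-04 for Atf4, 4.76e-04 for Ddit4 and 0.00130 for Ddit3. Ddit3 was lower in Th17 cells (-0.83) and not called elsewhere.

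Among the synthesis enzymes it was 3.08e-16 for Phgdh, 5.41e-16 for Shmt2, 3.05e-14 for Mthfd1l, 3.97e-13 for Psat1, 4.38e-12 for Shmt1, 5.40e-11 for Mthfd1, 1.05e-08 for Mthfd2, 4.40e-07 for Asns, 3.21e-05 for Aldh18a1 and 0.0198 for Psph. The largest log2 fold change of Asns was in Th1, that of Psph in Tr1, and those of the other 8 in Th17 cells. The transporters gave 2.40e-08 for Slc7a11, 3.02e-08 for Slc7a1, 3.20e-07 for Slc38a2, 0.00689 for Slc3a2 and 0.00890 for Slc7a5. Slc38a2 was called in opposite directions, higher in Th1 and lower in Th17 and Tr1 cells.

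Among the tRNA synthetases it was 1.23e-16 for Wars, 7.64e-11 for Vars, 6.28e-10 for Aars, 6.53e-09 for Iars, 1.92e-08 for Eprs, 3.84e-07 for Cars, 9.00e-07 for Mars, 7.85e-06 for Yars, 2.44e-05 for Tars, 2.56e-05 for Nars, 3.67e-05 for Gars and 0.0369 for Sars. That of Sars was above 0.05 in 12 of 34 alternatives, at most 0.103. Wars was the synthetase called in opposite directions, higher in Th1, Th17 and Tr1 and lower in Th2 and pTh17 cells.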

How the results depend on the processing

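No called difference of a member changed sign under the alternatives run, none of which used TPM. With other size factors, DESeq2, no filter on low counts or a fit of the groups compared alone, each count of members called stayed within 1.5 times its value above; the widest move was in Tr1 cells without the filter (13 against 19). Each library was left out in turn. The number of members called then ran from 27 to 30 in Th1, 28 to 31 in Th17, 13 to 17 in pTh17 and 16 to 19 in Tr1 cells, with 16 reached without Tr1 IL-10 positive replicate 18. In Th2 cells it ran from 7 to 13, and without Th2 IL-10 negative replicate 7 it fell to 7, the cause of which was not tested. The count ran from 32 to 33 for the mean, 29 to 31 for equality, and, against the other 4 cultures, 13 to 16 in Th1, 16 to 21 in Th2, 22 to 25 in Th17, 15 to 18 in pTh17 and 12 to 16 in Tr1 cells. For pTh17 minus Th17 it ran from 25 to 29 in IL-10 negative and 21 to 24 in positive cells. Replicate numbers gave no sign of pairing: over 15 same-numbered pairs the correlation of deviations ran from -0.046 to 0.055, 0 passed 0.1, and 7 IL-10 negative libraries correlated best with their own number. Whether same-numbered libraries came from 1 culture cannot be decided so, since differences between libraries may hide a shared source. With the number as a replicate block, 29 members were called in Th1, 13 in Th2, 30 in Th17, 17 in pTh17 and 18 in Tr1 cells, 33 in the mean and 29 in equality. The order of groups differed most between TPM and CPM for Cebpg (rank correlation -0.01 over 10 groups), Sars (0.564) and Slc3a2 (0.709). Depth limits Asns, Chac1, Pycr1, Slc7a5 and Atf5, which had few counts, and Cebpb could not be tested.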
